A study of Mus musculus with 6 samples.

Results

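The 10 genes described here encode the signals that start osteoclast formation, the receptors that read them, and the machinery of the osteoclast itself. They were taken by symbol from the 32285 genes listed for each library, and all 10 were found. Single-cell RNA was measured in cells of the mouse rotator cuff enthesis, where tendon inserts into bone, at 7 days postinjury (dpi) after tendon transection and repair. The 2 groups were wild-type C57BL/6 mice and Nlrp3-/- mice, which lack the sensor protein of the NLRP3 inflammasome in every cell, and each gave 3 libraries. All animals were adult and had the same injury and repair, no uninjured enthesis is part of these libraries, and entheses were pooled before capture, so a library is not 1 animal.

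Nlrp3 was checked first. It held 7843, 16106 and 11090 UMIs (unique molecular identifiers, the count of captured RNA molecules) in the wild-type libraries and 0 UMIs in each Nlrp3-/- library. The genotype field of Nlrp3-/- replicates 2 and 3 names Nlrp4 and Nlrp5, while their titles name Nlrp3. Xist stood at 879 ± 83.0 counts per 1000000 UMIs (CPM; SD, n = 3) where Nlrp3 was deleted, while wild type held 0.0628 ± 0.0392 CPM, and the Y-linked gene Ddx3y held 12776 UMIs in wild type and 0 in Nlrp3-/-. Genotype and sex therefore cannot be told apart in any comparison below. The study's methods call replicates independent without saying how the pooled animals were divided among libraries, and each p-value measures the spread between these libraries.

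Osteoclasts are large multinucleated cells that arise when precursors of the monocyte and macrophage lineage fuse. Stromal cells supply M-CSF (Csf1), which keeps the precursors alive through its receptor (Csf1r), and RANKL (Tnfsf11), which drives their differentiation through RANK (Tnfrsf11a). Osteoprotegerin (Tnfrsf11b) is a secreted decoy that binds RANKL and blocks it. RANK signalling induces Nfatc1, the master transcription factor of the lineage, whose targets include the fusion proteins DC-STAMP (Dcstamp) and OC-STAMP (Ocstamp), cathepsin K (Ctsk), the protease that cuts bone collagen, and tartrate-resistant acid phosphatase (Acp5), the classic osteoclast stain. At a healing enthesis osteoclasts resorb bone at the repair site.

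All 10 genes are protein coding in the GENCODE annotation of mouse build GRCm38. Tnfsf11 spans chr14:78277445-78308043 on the minus strand, Tnfrsf11b chr15:54250619-54278484 (minus), Csf1 chr3:107741048-107760469 (minus) and Tnfrsf11a chr1:105780718-105847981 (plus). Dcstamp spans chr15:39745930-39760938 (plus), Ocstamp chr2:165393760-165400405 (minus), Ctsk chr3:95499256-95509362 (plus) and Acp5 chr9:22126727-22135711 (minus). Positions of Csf1r and Nfatc1 are not given here. Acp5, Csf1r and Nfatc1 each overlap another annotated gene on the opposite strand, and Csf1r also a microRNA gene on its own strand. Whether any of their UMIs belong to those genes was not tested.

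The 250 bases upstream of a RefSeq start site (build GRCm38.p6) are shown for the ligand gene Tnfsf11 and for the resorption genes Ctsk and Acp5, because the ligand and the response were found in different cells. Capitals mark GGAAA, the core that NFAT proteins bind, on either strand.
Tnfsf11 (chr14:78308044-78308293, minus strand): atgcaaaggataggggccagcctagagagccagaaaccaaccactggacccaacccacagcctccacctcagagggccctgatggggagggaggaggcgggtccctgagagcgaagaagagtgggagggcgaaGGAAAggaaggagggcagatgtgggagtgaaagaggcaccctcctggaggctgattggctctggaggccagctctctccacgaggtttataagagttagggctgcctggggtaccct
Ctsk (chr3:95498960-95499209, plus strand): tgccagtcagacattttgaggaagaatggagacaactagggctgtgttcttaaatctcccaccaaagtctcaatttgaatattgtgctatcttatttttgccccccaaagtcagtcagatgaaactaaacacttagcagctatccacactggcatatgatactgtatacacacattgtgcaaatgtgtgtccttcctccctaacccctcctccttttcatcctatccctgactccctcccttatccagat
Acp5 (chr9:22135747-22135996, minus strand, the first of 3 starts): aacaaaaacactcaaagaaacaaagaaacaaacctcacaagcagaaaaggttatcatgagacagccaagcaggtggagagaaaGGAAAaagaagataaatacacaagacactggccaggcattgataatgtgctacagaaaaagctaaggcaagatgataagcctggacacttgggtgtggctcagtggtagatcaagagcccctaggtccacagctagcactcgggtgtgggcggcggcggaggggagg
The letters GGAAA occurred once in the Tnfsf11 window, once in this Acp5 window and not in the Ctsk window, while 55.6% of 32851 promoter windows of this length held them on either strand. Neither TGANTCA, the letters that AP-1 binds, nor TCANGTG, those that MITF binds, occurred in these 3 windows, against 6.75% and 12.2% of all windows. The windows of the other two Acp5 starts held GGAAA 1 time (chr9:22131866-22132115) and 2 times (chr9:22130599-22130848), and the latter held TCANGTG 1 time.

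Cells were grouped with the 10 genes left out of the clustering, and the groups were named from fixed marker lists, so each name means cells that resemble that type. The osteoclast-like cells numbered 267, 437 and 205 in the wild-type libraries and 442, 309 and 522 in the Nlrp3-/- libraries. All 10 osteoclast markers on their list, none of which is among the 10 genes, stood higher in them than in macrophages in wild type (summed level 2630 to 3450 CPM against 180 to 275 CPM). The same list named these cells, so the values describe the name and do not test it. Macrophage markers summed to 1329 to 1673 CPM in these cells and neutrophil markers to 952 to 2113 CPM. In Nlrp3-/- osteoclast-like cells the same sums were 1870 to 1928 CPM and 398 to 1133 CPM, and the part of neutrophil RNA in the results was not tested. No cluster was named as osteoblasts, but 2 mesenchymal clusters that best matched the osteoblast lineage list were set aside as clusters of mostly 1 library, with 252 and 83 Nlrp3-/- cells and 0 and 1 wild-type cells. Nlrp3-/- replicate 1 stood apart: 9833 of its 20527 cells lay in clusters below the median depth in which over 75% of the cells came from 1 library, and were set aside, against 86 to 135 cells in each other library. A further 307 wild-type and 603 Nlrp3-/- cells in clusters led by markers of another class were left out of the cell types, by a limit set after the clusters had been seen. They stayed in the sums over all cells. Pairs of libraries shared 26 to 96 cell barcodes.

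RANKL RNA was found in stromal cells. In wild type, Tnfsf11 stood at 42.5, 52.3 and 85.6 CPM in mesenchymal cells, and these cells held 90.6% ± 3.8 (SD, n = 3) of its UMIs. Cell types are ranked here and below among 17 finer groups, which leave out cells of no name and the unnamed macrophages and mesenchymal cells. Tenocytes, erythroid cells and muscle cells are also left out of this ranking, because each had fewer than 20 cells in a wild-type library. Among these 17, of which 1 (cluster 26, led by Igkc) is left unnamed, synovial lining cells (48.3 to 151 CPM) and inflammatory fibroblasts (57.0 to 131 CPM) stood highest, with ranges that overlapped each other. T and NK cells, which are known to make RANKL when activated, came next at 22.7, 54.1 and 55.8 CPM, below every library of the inflammatory fibroblasts. Universal fibroblasts (38.4 ± 43.2 CPM) and matrix fibroblasts (32.9 ± 21.7 CPM) overlapped the T and NK cells. After thinning each cell to 1500 UMIs, 7.97% ± 2.64 of mesenchymal cells and 4.05% ± 1.15 of T and NK cells held a Tnfsf11 UMI, against 0.687% ± 0.486 of B cells and 0.108% ± 0.0616 of macrophages. Unthinned, the shares were 39.4%, 6.60%, 1.73% and 0.326%, at median depths of 15613, 2780, 1966 and 4543 UMIs. Free RNA, read from barcodes with at most 100 UMIs, held Tnfsf11 at 10.3 to 31.7 CPM in the wild-type libraries, above the level in B cells of the same library in each (6.96, 1.13 and 25.1 CPM).

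The decoy receptor had another pattern. Tnfrsf11b was highest in chondrocyte-like cells in wild type, at 41.1, 767 and 55.8 CPM, and even the lowest library lay above every library of the next type. The middle library had only 21 such cells, all of a single cluster that held 10 and 13 cells in the others. Synovial lining cells followed at 17.4 ± 3.08 CPM, then inflammatory fibroblasts at 7.22 ± 4.45 CPM. Free RNA held 3.30 to 4.04 CPM of Tnfrsf11b in the wild-type libraries. In chondrocyte-like cells Tnfsf11 stood at 2.97 ± 3.69 CPM, below every library of the synovial lining. T and NK cells and B cells held 0 Tnfrsf11b UMIs in all 6 libraries, which allows up to 0.51 CPM in the former and 0.153 CPM in the latter (3 counts over all libraries, for counting error only).

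M-CSF RNA was spread more widely. Csf1 was highest in universal fibroblasts, named here from a list that includes Pi16 and Dpp4, at 76.0, 83.3 and 119 CPM in wild type, above every library of the next type. Neutrophils stood second at 25.7, 73.9 and 47.8 CPM and overlapped the inflammatory fibroblasts (43.8 ± 11.01 CPM) and the synovial lining (41.4 ± 1.48 CPM). Neutrophils were the most numerous class and held 28.9% ± 5.0 of the Csf1 UMIs, against 54.2% ± 8.0 in mesenchymal cells. After thinning, 4.96% ± 2.58 of neutrophils held a Csf1 UMI, with 5178 of 12238 neutrophils too shallow to enter, against 0.351% ± 0.0877 of B cells. Unthinned, the shares were 9.06% and 0.763%, at median depths of 1767 and 1966 UMIs. Csf1 in free RNA stood at 15.6 to 32.6 CPM in these libraries. Endothelial cells held 18.6 ± 1.77 CPM.

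**Figure D1:**
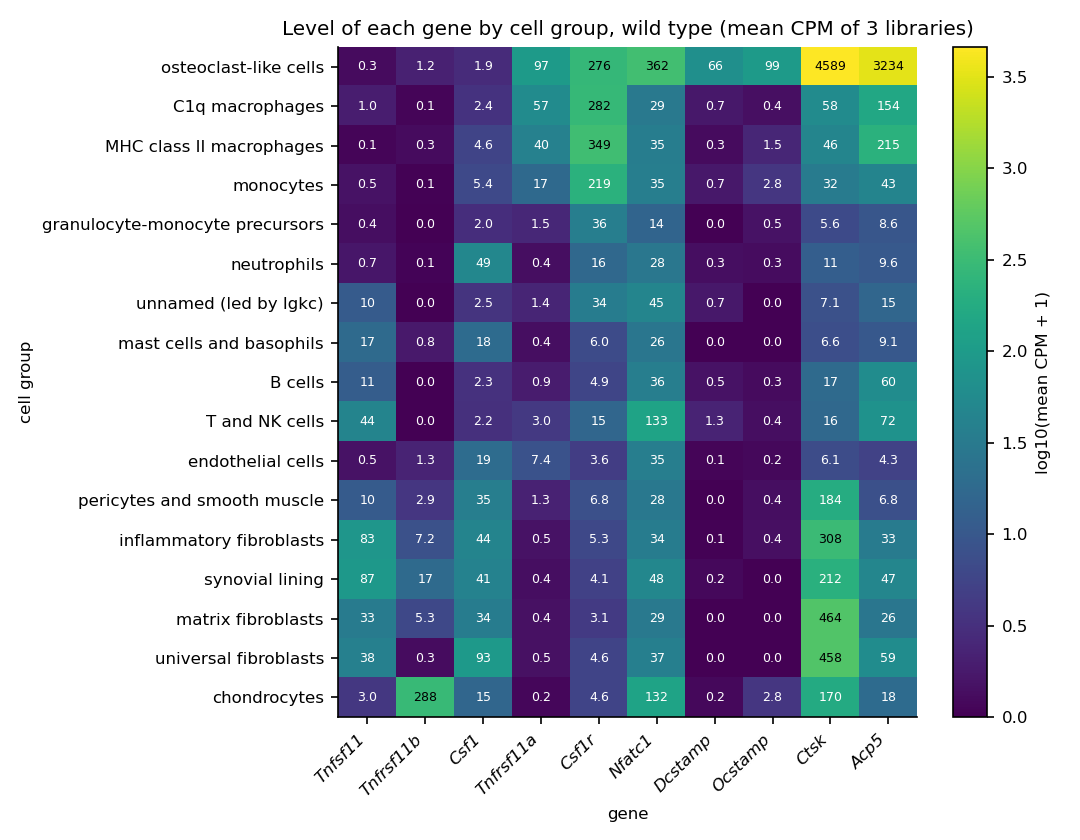
Mean CPM of each gene (columns) in 17 cell groups (rows) of the 3 wild-type libraries, with colour on a log10(CPM + 1) scale and the mean printed in each cell. The ligand and decoy genes on the left are high in stromal rows, and the osteoclast-like row on top is highest for Tnfrsf11a, Nfatc1, Dcstamp, Ocstamp, Ctsk and Acp5, with Ctsk at 4589 CPM.

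The receptors marked the myeloid lineage. Tnfrsf11a stood in steps across the lineage in wild type, from 86.1, 91.2 and 113 CPM in osteoclast-like cells to 56.7 ± 17.1 CPM in C1q macrophages, 39.5 ± 6.08 CPM in MHC class II macrophages and 16.9 ± 2.63 CPM in monocytes. No 2 neighbours in this order overlapped. Macrophages held 44.3% ± 2.4 of its UMIs and osteoclast-like cells 37.5% ± 4.6, although they were 22.4% and 2.47% of the cells. Endothelial cells, at 7.40 ± 1.77 CPM, lay below all of these and above every remaining type of the 17. Outside this order, unnamed macrophages held a mean of 50.9 CPM and cells of no name 32.4 CPM. Free RNA held 9.71 to 15.3 CPM of Tnfrsf11a in the wild-type libraries, above the endothelial cells in each. Csf1r had a flatter profile: MHC class II macrophages stood highest at 349 ± 32.6 CPM, C1q macrophages (282 ± 24.99 CPM) and osteoclast-like cells (249, 253 and 326 CPM) overlapped, and monocytes followed at 219 ± 20.2 CPM. Granulocyte-monocyte precursors were lower, at 36.1 ± 0.618 CPM. Free RNA held 63.7 to 91.5 CPM of Csf1r in these libraries, above the precursors in each.

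Nfatc1 was highest in osteoclast-like cells, at 310, 319 and 456 CPM in wild type, but these cells held under 50% of its UMIs. T and NK cells, where NFATc1 is a regulator of activation, stood at 133 ± 26.0 CPM and chondrocyte-like cells at 132 ± 69.9 CPM, both below every osteoclast-like library. Macrophages held 32.6, 32.9 and 42.3 CPM. Mesenchymal cells held 24.9% ± 5.6 of the Nfatc1 UMIs against 36.7% ± 4.0 in osteoclast-like cells. Free RNA held 41.7, 46.7 and 54.2 CPM, above macrophages and above B cells (29.8, 41.8 and 36.5 CPM) in each library.

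Among the ranked groups the fusion genes were the most narrowly placed. Dcstamp stood at 61.6, 73.4 and 64.3 CPM in wild-type osteoclast-like cells and at a mean of at most 1.35 CPM in each of the other 16 groups. Ocstamp stood at 86.9, 102 and 108 CPM, and monocytes, the next type of those ranked, at 2.78 ± 0.134 CPM. Outside the ranking, wild-type cells of no name stood higher than these next types, at means of 7.18 CPM of Dcstamp and 10.2 CPM of Ocstamp. Unnamed macrophages held a mean of 4.87 CPM of Dcstamp in wild type. Osteoclast-like cells held 83.7% ± 2.1 of the Dcstamp UMIs and 82.7% ± 4.9 of the Ocstamp UMIs. After thinning, 6.40% ± 1.201 of these cells held a Dcstamp UMI and 10.4% ± 1.49 an Ocstamp UMI, and no thinned B cell held either. Unthinned, the shares were 26.4% and 39.7% at a median depth of 14233 UMIs, against 0.0872% and 0.115% of B cells.

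The resorption genes were abundant in osteoclast-like cells, but Ctsk was also a stromal gene. Ctsk stood at 3689, 4169 and 5910 CPM in wild-type osteoclast-like cells, and Acp5 at 3167, 3439 and 3095 CPM. Among the 17 groups, matrix fibroblasts (464 ± 53.7 CPM) and universal fibroblasts (458 ± 20.8 CPM) were next for Ctsk, overlapped each other and lay below every osteoclast-like library. Unnamed mesenchymal cells, outside the 17 groups, held a mean of 526 CPM. Mesenchymal cells as a whole held 29.99% ± 5.0 of the Ctsk UMIs and osteoclast-like cells 64.1% ± 4.0. For Acp5 the osteoclast-like share was larger, 79.6% ± 1.8, and the next types of the 17 were MHC class II macrophages (215 ± 80.7 CPM) and C1q macrophages (154 ± 31.2 CPM), whose ranges overlapped. Unnamed macrophages held a mean of 192 CPM of Acp5. Free RNA held 194 to 348 CPM of Ctsk and 133 to 278 CPM of Acp5. The levels in B cells (17.3 ± 12.3 CPM of Ctsk and 60.3 ± 27.3 CPM of Acp5) lay below it. After thinning, 42.1% ± 8.52 of mesenchymal cells held a Ctsk UMI, close to the 48.8% ± 8.58 of osteoclast-like cells, and 1.94% ± 0.490 of B cells did. Unthinned, those shares were 94.3%, 63.1% and 3.28%.

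**Figure D2:**
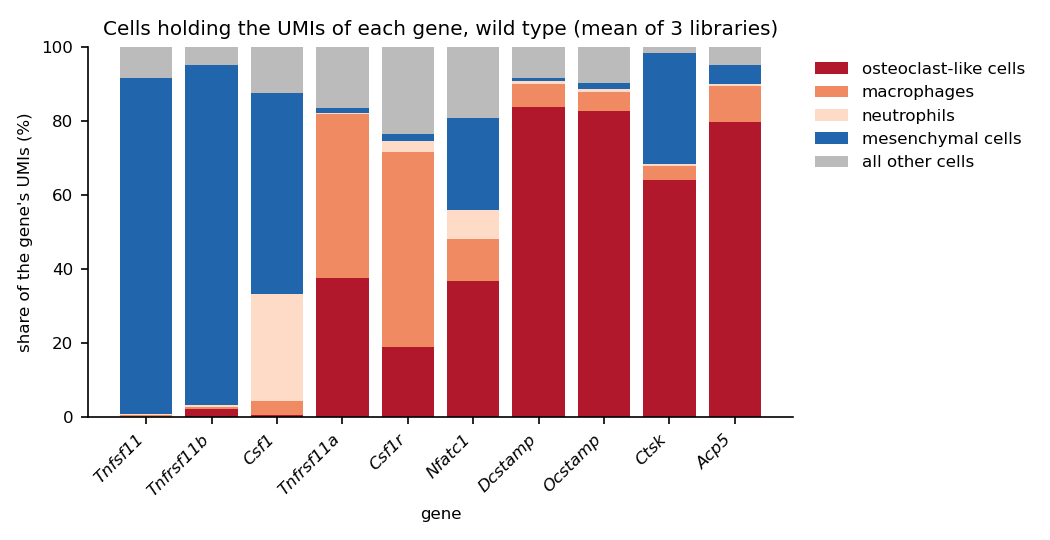
Share of each gene's UMIs held by osteoclast-like cells, macrophages, neutrophils, mesenchymal cells and all other cells, as stacked means of the 3 wild-type libraries (y axis, %). Mesenchymal cells hold 90.6% of Tnfsf11 and 29.99% of Ctsk, and osteoclast-like cells hold 83.7% of Dcstamp.

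The osteoclast-like cells formed 3 clusters that differed in these genes, although none of the 10 was used to form them. Cluster 12 (580 cells), led by Ctsk, Mmp9 and Mt3, held by far the highest levels: in wild type Ctsk stood at 10932, 10254 and 12209 CPM, Acp5 at 7512 ± 958 CPM, Ocstamp at 242 ± 12.3 CPM and Dcstamp at 176 ± 36.6 CPM. Cluster 8 (936 cells) held Ctsk at 1507 ± 1194 CPM, Ocstamp at 42.7 ± 8.43 CPM and Dcstamp at 9.45 ± 5.30 CPM. Cluster 11 (666 cells) was led by genes of dividing cells such as Top2a and Birc5, with Ctsk among its 10 leading genes, at 2058 ± 340 CPM. Its Dcstamp level was 32.8 ± 8.35 CPM and its Ocstamp level 31.4 ± 4.45 CPM. Acp5 was alike in clusters 8 (1438 ± 179 CPM) and 11 (1369 ± 248 CPM), whose ranges overlapped. Tnfrsf11a varied less, at 99.01 ± 8.88, 81.9 ± 17.6 and 106 ± 35.9 CPM in clusters 8, 11 and 12, with overlapping ranges. Csf1r stood at 273 ± 41.7, 181 ± 32.6 and 378 ± 67.3 CPM and Nfatc1 at 292 ± 26.1, 278 ± 90.9 and 512 ± 124 CPM, both highest in cluster 12. After thinning, 99.2% ± 1.31 of cluster 12 cells in wild type held a Ctsk UMI, against 33.0% ± 13.6 in cluster 8 and 40.6% ± 10.9 in cluster 11. Unthinned these were 100%, 51.2% and 57.5%, at median depths of 22061, 10422 and 17197 UMIs. Of the 10 osteoclast markers on the list, 3 were raised in cluster 8, 4 in cluster 11 and 8 in cluster 12. These are descriptions of clusters and carry no test.

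Across the wild-type means of the 17 cell groups, on the log2(CPM + 1) scale, Tnfrsf11a and Csf1r had similar profiles (Pearson r = 0.87), as had Dcstamp and Ocstamp (r = 0.92). Tnfsf11 ran opposite to Csf1r (r = -0.66) and Tnfrsf11a (r = -0.64). Among all genes reaching 20 CPM in some type, the most similar to Csf1r were Cd68 (r = 0.97) and Aif1 (r = 0.96), both macrophage genes. The most similar to Dcstamp was Oscar (r = 0.96), an osteoclast receptor, and to Acp5 it was Atp6v0d2 (r = 0.90), a proton pump subunit of osteoclasts. For Ctsk they were Bdh2 (r = 0.91), the anion exchanger Slc4a2 (r = 0.90) and Src (r = 0.89). For Tnfrsf11a the closest was Atp6v1c1 (r = 0.93), another proton pump subunit. Tnfsf11 was closest to Dpy19l3 (r = 0.94), Tnfrsf11b to Tmem56 and the BMP antagonist Nog (both r = 0.96), Csf1 to Pdlim7 (r = 0.92), Nfatc1 to Kbtbd11 (r = 0.89) and Ocstamp to Oscar (r = 0.91). Oscar and Atp6v0d2 are on the marker list that named the osteoclast-like cells, and Cd68 is on the list for macrophages. All 17 points come from the same 3 libraries and share their free RNA, and these values carry no p.

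The knockout was then set against wild type, to ask whether the loss of Nlrp3 changed the signals or the response. No member passed the test in osteoclast-like cells. Ctsk stood at 6281, 7106 and 6609 CPM in Nlrp3-/- libraries, above all 3 wild-type libraries, as was so in one direction or the other for 25.5% of all genes with a mean of at least 1 CPM, and the log2 fold change was 0.37 ± 0.16 (SE, n = 3 per group; 95% interval 0.01 to 0.73; edgeR adjusted p = 0.223). Ctsk is also a mesenchymal gene, and the mesenchymal markers in these cells summed to 390 to 1015 CPM in Nlrp3-/- against 198 to 411 CPM, and their part in this difference was not tested. Nfatc1 stood at 452, 501 and 515 CPM, and wild-type replicate 3, at 456 CPM, lay within that range (log2 fold change 0.27 ± 0.13, adjusted p = 0.272). Tnfrsf11a (116, 113 and 126 CPM; adjusted p = 0.592) and Csf1r (314, 390 and 334 CPM; adjusted p = 0.497) overlapped wild type. Dcstamp (73.6, 65.9 and 82.3 CPM) had a log2 fold change of -0.03 with an interval of -0.34 to 0.27, and Ocstamp (86.6, 106 and 113 CPM) one of -0.14 (-0.41 to 0.13). Acp5 (3096, 3639 and 3383 CPM) had one of -0.13 (-0.46 to 0.20). The signs of these 3 fold changes turn with the scaling: the fit scales libraries by TMM factors, while the mean CPM was higher in Nlrp3-/- for Dcstamp (73.95 against 66.4), Ocstamp (102 against 99.1) and Acp5 (3373 against 3234), so no direction can be given for them over the osteoclast-like cells as a whole. Of 7 members with enough counts to test, 0 passed and 1 had an unadjusted p under 0.05, while 73 of 10184 genes passed (0.717%) and 21.5% had an unadjusted p under 0.05. DESeq2 called 0 of 7 members and 13.9% of the 3335 genes to which it gave an adjusted p. Wild-type replicate 3 set part of this result: without it Ctsk (0.51, adjusted p = 0.0138) and Nfatc1 (0.38, adjusted p = 0.0249) passed, in a fit in which 2328 genes passed.

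**Figure D3:**
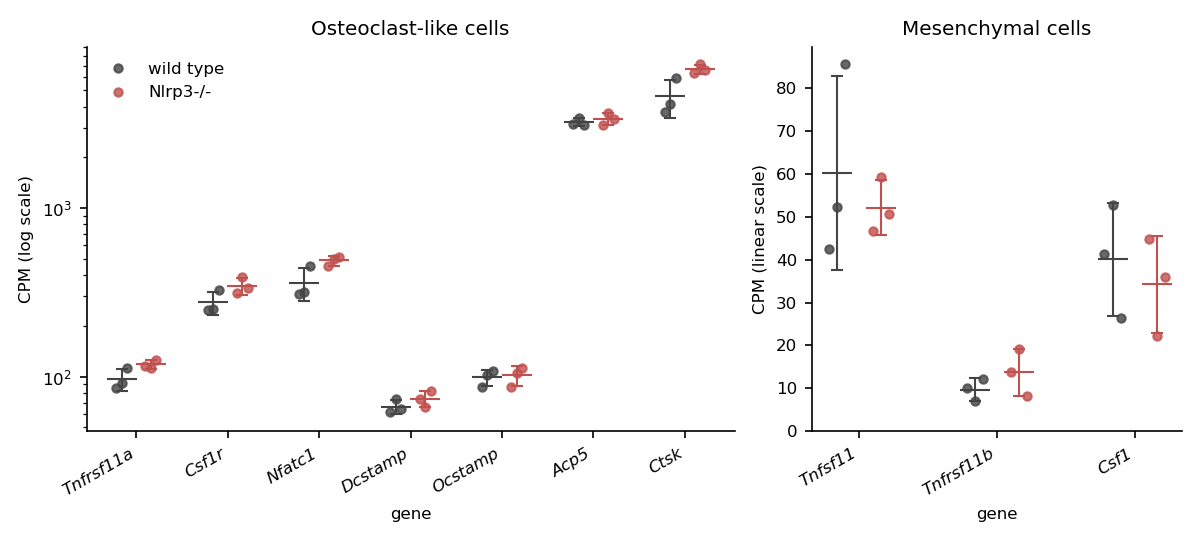
CPM of 7 genes in osteoclast-like cells (left, log scale) and of 3 genes in mesenchymal cells (right, linear scale) in each wild-type (grey) and Nlrp3-/- (red) library, with the mean and SD of 3 libraries as dash and bar. Ctsk is the gene on the left whose groups do not overlap, at 3689 to 5910 CPM in wild type and 6281 to 7106 CPM in Nlrp3-/-.

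The osteoclast-like result was examined within each cluster, where 0 of 7 members passed with edgeR in each, against 0.638%, 2.82% and 0.767% of all genes in clusters 8, 11 and 12. In cluster 12 Ctsk stood at 15273, 17008 and 14853 CPM in Nlrp3-/- libraries, without overlap with wild type (as 19.4% of all genes with a mean of at least 1 CPM), but did not pass (0.35 ± 0.17, adjusted p = 0.312). Csf1r did not overlap there either, at 498, 572 and 478 CPM against 336, 342 and 455 CPM (0.31 ± 0.15, adjusted p = 0.322). In cluster 11 the log2 fold change of Ctsk was -0.25. In cluster 8 Ocstamp stood at 21.8, 23.9 and 28.4 CPM against 35.3, 41.0 and 51.9 CPM in wild type (-0.91 ± 0.20, adjusted p = 0.0543), and Nfatc1 at 391, 465 and 424 CPM against 296, 264 and 316 CPM (0.39 ± 0.14, adjusted p = 0.2). Tnfrsf11a stood at 123, 110 and 115 CPM against 88.8, 103 and 105 CPM (0.07 ± 0.15, adjusted p = 0.854). The groups of these 3 genes did not overlap in cluster 8, as was so for 19.1% of all genes with a mean of at least 1 CPM. In cluster 11 Acp5 differed by -0.63 ± 0.18 on the log2 scale (edgeR adjusted p = 0.0754) and Dcstamp, at 26.6, 26.1 and 12.2 CPM against 24.8, 41.4 and 32.1 CPM, by -0.84 ± 0.30 (edgeR adjusted p = 0.143), and the groups of both overlapped. Dcstamp overlapped in the other clusters too, at 17.9, 7.29 and 13.7 CPM against 6.62, 6.16 and 15.6 CPM in cluster 8 (0.41 ± 0.40) and at 176, 168 and 194 CPM against 210.0, 181 and 137 CPM in cluster 12 (-0.13 ± 0.19). Cluster 12 made up 16.5%, 21.3% and 28.3% of the osteoclast-like cells in wild type and 31.0%, 26.2% and 32.0% in Nlrp3-/-, which overlap, and wild-type replicate 3 was again the library closest to the knockout.

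**Figure D4:**
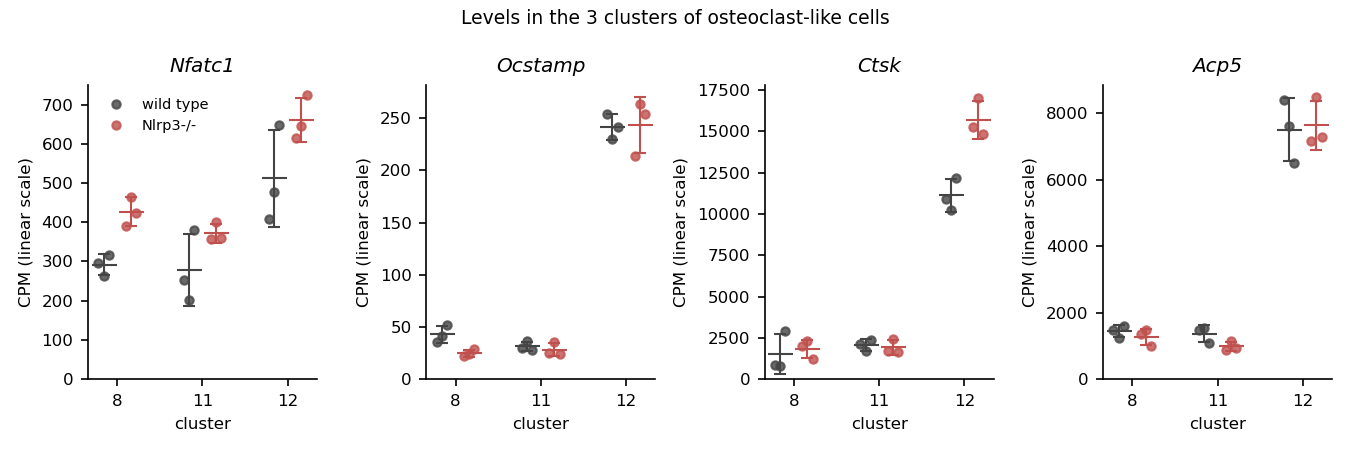
CPM of Nfatc1, Ocstamp, Ctsk and Acp5 (linear y axes) in clusters 8, 11 and 12 of the osteoclast-like cells, for each wild-type (grey) and Nlrp3-/- (red) library with the mean and SD of 3 libraries. Cluster 12 is highest for Ocstamp, Ctsk and Acp5 in both genotypes, and Ocstamp in cluster 8 is lower in each Nlrp3-/- library, at 21.8 to 28.4 CPM.

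The share of osteoclast-like cells among the captured cells was then compared, over clusters 8, 11 and 12 together. The number of osteoclasts in the tissue was not measured. Osteoclast-like cells made up 8.56%, 10.5% and 10.8% of the osteoclast-like and macrophage cells combined in wild type (mean 9.95%, SD 1.22). In Nlrp3-/- they made up 14.7%, 15.3% and 15.3% (15.1%, SD 0.378). In this share the groups did not overlap, and the difference of 5.15 percentage points was larger than the spread between libraries. The exact two-sided permutation p was 0.1, the smallest this test can give with 3 against 3 libraries. Left out in turn, the 6 libraries gave differences of 4.45 to 5.59 percentage points, the set-aside cells being counted in none of them. As a share of all cells in the comparisons, the genotypes did overlap. Osteoclast-like cells made up 2.20%, 2.97% and 2.24% of them in wild type and 4.31%, 2.87% and 4.33% in Nlrp3-/-.

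In macrophages 0 of 8 tested members passed, 2 had an unadjusted p under 0.05 (as had 17.3% of all genes), and 62 of 12153 genes passed (0.51%). DESeq2 called 0 members and 2.96% of 13165 genes. Ocstamp, at 2.54, 1.89 and 1.28 CPM in wild type and 1.07, 0.898 and 1.00 CPM in Nlrp3-/-, differed by -1.07 ± 0.34 on the log2 scale (adjusted p = 0.201). Tnfrsf11a stood at 40.8, 48.4 and 43.3 CPM in Nlrp3-/- and 33.6, 37.4 and 40.3 CPM in wild type (0.13 ± 0.11, adjusted p = 0.537). The groups of both genes did not overlap, as was so for 22.3% of all genes with a mean of at least 1 CPM. The Ocstamp levels rest on 82 and 39 UMIs in all and lay below free RNA in 5 of 6 libraries. Without wild-type replicate 3 Ocstamp passed (-1.30, adjusted p = 0.0393) along with 1632 genes. Nfatc1 stood at 40.8, 58.8 and 49.5 CPM in Nlrp3-/- macrophages (0.34 ± 0.14, adjusted p = 0.258). In C1q macrophages it stood at 40.2, 63.6 and 52.9 CPM against 26.5, 23.9 and 37.3 CPM, without overlap, as was so for 20.6% of all genes with a mean of at least 1 CPM (0.73 ± 0.19, adjusted p = 0.125). In the same cells the Ctsk groups did not overlap either (0.53 ± 0.19, adjusted p = 0.208). Acp5 lay the other way, at 120, 114 and 131 CPM against 176, 167 and 118 CPM, with overlap (-0.48 ± 0.18, unadjusted p 0.0219, edgeR adjusted p = 0.236). Free RNA was also higher in Nlrp3-/- libraries without overlap, for Nfatc1 at 57.3 to 63.3 CPM against 41.7 to 54.2 CPM and for Ctsk at 370 to 578 CPM against 194 to 348 CPM. For Acp5 free RNA held 133 to 278 CPM in wild type and 206 to 307 CPM in Nlrp3-/-, above the C1q macrophages in each library. The clusters that make up the C1q macrophages differed too: cluster 2 had 381 wild-type and 1238 Nlrp3-/- cells and cluster 5 had 957 and 466. The part of free RNA and of these clusters in the values was not tested.

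The stromal signals were then compared. In mesenchymal cells 0 of 9 tested members passed, 0 had an unadjusted p under 0.05, and 15 of 14667 genes passed (0.102%). On simulated data edgeR called 14.7% of log2 fold changes of size 1 in these cells, so it would miss most changes of that size. DESeq2 called 0 members and 1.62% of 14894 genes. Tnfsf11 stood at 46.7, 59.2 and 50.6 CPM in Nlrp3-/- libraries, within the wild-type range (-0.27 ± 0.27, interval -0.91 to 0.38, adjusted p = 0.646). Tnfrsf11b stood at 13.9, 19.1 and 8.25 CPM against 10.0, 7.02 and 12.2 CPM (0.44 ± 0.35, interval -0.38 to 1.27, adjusted p = 0.559). Csf1 stood at 44.7, 22.2 and 35.9 CPM against 41.3, 52.6 and 26.4 CPM (-0.30 ± 0.31, adjusted p = 0.654). Ctsk, at 476, 382 and 544 CPM against 291, 317 and 478 CPM, overlapped as well (adjusted p = 0.554). None of the 9 was without overlap, against 20.3% of all genes with a mean of at least 1 CPM. Without wild-type replicate 3, the library with the most Tnfsf11, the log2 fold change of Tnfsf11 was 0.06.

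The balance of ligand and decoy was measured as the log2 ratio of Tnfsf11 to Tnfrsf11b UMIs, with 0.5 added to each sum. It was 2.08, 2.89 and 2.81 in wild-type mesenchymal cells and 1.75, 1.63 and 2.61 in Nlrp3-/-, a difference of -0.60 (exact two-sided permutation p = 0.2, where 0.1 is the smallest possible, adjusted over 8 cell groups 0.4). The groups overlapped. Left out in turn, the 6 libraries gave -0.91 (without Nlrp3-/- replicate 3) to -0.42 (without Nlrp3-/- replicate 2). Over all cells the difference was -0.59 (exact permutation p = 0.2), and -0.93 to -0.34 without the same libraries. In the finer types single libraries set the size of the difference. In inflammatory fibroblasts it was -0.34 (exact permutation p = 0.6), but -0.11 without Nlrp3-/- replicate 1, -0.036 without wild-type replicate 2 and -0.56 without wild-type replicate 1. In matrix fibroblasts the log2 ratio was 2.15, 2.32 and 2.81 in wild type and 2.78, 0.53 and 1.98 in Nlrp3-/-, and the difference of -0.66 (exact permutation p = 0.4) was -0.046 without Nlrp3-/- replicate 2 and -1.17 without replicate 1. In synovial lining cells it was 1.89, 1.68 and 2.84 against 2.52, 4.22 and 0.66, and the difference of 0.33 (exact permutation p = 0.8) turned to -0.55 without Nlrp3-/- replicate 2. In chondrocyte-like cells it was -7.42, -6.18 and -4.72 against -6.14, -4.53 and -2.32, and the difference of 1.78 (exact permutation p = 0.2) fell to 0.77 without Nlrp3-/- replicate 3, which had 7 such cells, and to 1.12 without wild-type replicate 1. It rose to 2.68 without Nlrp3-/- replicate 1 and to 2.47 without wild-type replicate 3. In tenocytes the difference of 0.27 (exact permutation p = 0.8) ran from 0.0022 without Nlrp3-/- replicate 2 to 0.64 without wild-type replicate 3. Different clusters held the mesenchymal class in each genotype: inflammatory fibroblast cluster 3 had 861 wild-type and 39 Nlrp3-/- cells, tenocyte cluster 1 had 165 and 946, and the chondrocyte-like cells, which stood highest for Tnfrsf11b, numbered 80, 21 and 73 in wild type and 64, 520 and 7 in Nlrp3-/-. The part of this composition in the mesenchymal values of Tnfsf11, Tnfrsf11b and their ratio was not tested.

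Universal fibroblasts, the population with the highest Csf1, were the exception in which the computed ratios did not overlap. Tnfrsf11b held 0, 2 and 0 UMIs there in 76, 219 and 38 wild-type cells and 7, 53 and 22 UMIs in 25, 134 and 239 Nlrp3-/- cells, or 37.5, 44.7 and 9.06 CPM in Nlrp3-/-. Tnfsf11 held 11, 32 and 40 UMIs in wild type and 0, 31 and 28 in Nlrp3-/-. A count of 0 allowed up to 3.26 and 6.62 CPM of Tnfrsf11b in wild-type replicates 1 and 3 and up to 16.1 CPM of Tnfsf11 in Nlrp3-/- replicate 1 (3 counts per library). With the same amount added to each sum as above, the log2 ratio was 4.52, 3.70 and 6.34 in wild type and -3.91, -0.76 and 0.34 in Nlrp3-/-. The computed difference was -6.30 (exact permutation p = 0.1, the smallest possible, adjusted over 8 groups 0.4). Its size is not measured, because 4.52, 6.34 and -3.91 each rest on a count of 0 and so on the added amount. In Nlrp3-/- replicate 2, 89 of the 134 cells came from a cluster that no other library entered. In the cluster shared by all libraries Tnfrsf11b held 6 UMIs in that library, or 10.6 CPM, and Tnfsf11 30 UMIs, or 53.2 CPM. With that cluster alone, an alternative chosen after seeing the data, the log2 ratio of this library was 2.23 in place of -0.76. The computed difference between genotypes was then -5.30 (exact permutation p = 0.1). Neither this size nor a lack of overlap is measured there, because the ratios with a count of 0 depend on the added amount. The test therefore cannot decide whether the groups differ in that cluster. Chondrocyte markers, which accompany Tnfrsf11b elsewhere, summed to 42.9, 244 and 70.0 CPM in these Nlrp3-/- cells and to 65.2 to 97.1 CPM in wild type, and their part in the result was not tested. Free RNA held 6.14, 10.2 and 3.54 CPM of Tnfrsf11b in the Nlrp3-/- libraries and 3.30 to 4.04 CPM in wild type. The 10.6 CPM of Nlrp3-/- replicate 2 in the shared cluster thus lay close to its free RNA. The part of free RNA in these counts was not tested. Tnfrsf11b had too few UMIs in universal fibroblasts for the edgeR test. This population was singled out after its values were seen.

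**Figure D5:**
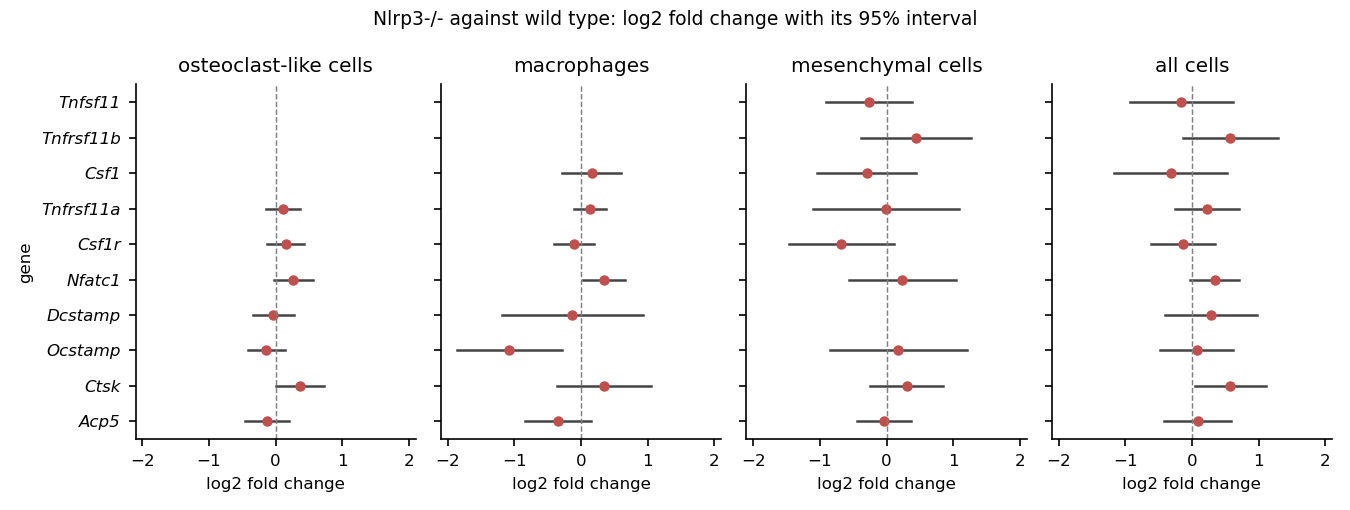
Log2 fold change of each gene (Nlrp3-/- against wild type, points) with its 95% interval (lines) from the edgeR fit in osteoclast-like cells, macrophages, mesenchymal cells and all cells. No gene passed the adjusted threshold in any panel, and genes with too few counts have no point.

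Over all kept cells together, 0 of 10 members passed, 1 (Ctsk) had an unadjusted p under 0.05 (11.7% of all genes), and 25 of 17293 genes passed (0.145%). DESeq2 called 0 members and 1.95% of 17468 genes. Ctsk stood at 613, 498 and 765 CPM in Nlrp3-/- and 268, 402 and 466 CPM in wild type (0.58 ± 0.23, adjusted p = 0.419), and Nfatc1 at 65.9, 73.1 and 79.9 CPM against 42.7, 48.6 and 64.1 CPM (0.34 ± 0.15, adjusted p = 0.436). The groups of both genes did not overlap, as was so for 23.3% of all genes with a mean of at least 1 CPM. A sum over all cells mixes the number of cells of each type with the RNA in each.

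Over 25 cell groups, 158 tests of a member were made with edgeR, 0 passed and 28 had an unadjusted p under 0.05, as had 7.49% to 21.5% of all genes in these groups. In 25 of the tests the genotypes did not overlap, against 12.7% to 27.8% of all genes with a mean of at least 1 CPM by group. Some groups share cells. The smallest adjusted p, 0.0543, was that of Ocstamp in cluster 8. Of all genes, edgeR called 0.505% in C1q macrophages, 0.211% in MHC class II macrophages, 0.398% in monocytes, 0.235% in unnamed macrophages, 0.416% in neutrophils, 0.629% in granulocyte-monocyte precursors, 0.234% in B cells, 0.312% in mast cells and basophils and 0.762% in cells of no name. It called 0.478% in cluster 26, which held the plasmacytoid dendritic cell markers Siglech and Cox6a2 among its leading genes but was led by immunoglobulin genes such as Igkc and Igha, and is left unnamed here. Among stromal types it called 0.156% in inflammatory, 0.543% in matrix and 0.342% in universal fibroblasts, 0.14% in synovial lining, 0.139% in unnamed mesenchymal cells, 0.173% in pericytes and 0.589% in endothelial cells. In synovial lining cells Nfatc1 (87.7, 84.4 and 83.3 CPM against 34.1, 41.1 and 69.2 CPM; 0.69 ± 0.22, adjusted p = 0.213) and Acp5 (16.1, 31.7 and 33.0 CPM against 44.2, 42.1 and 56.0 CPM; -0.82 ± 0.23, adjusted p = 0.184) did not overlap between genotypes, in opposite directions. Csf1 did not overlap there either, at 44.7, 51.8 and 83.3 CPM against 40.5, 43.1 and 40.6 CPM (0.44 ± 0.23, adjusted p = 0.375), while its fold change over all mesenchymal cells was -0.30. Of all genes with a mean of at least 1 CPM, 19.2% were without overlap in synovial lining cells. Free RNA held 133 to 278 CPM of Acp5 in wild type and 206 to 307 CPM in Nlrp3-/-, above the synovial lining cells in each library. Its part in the Acp5 values was not tested. In neutrophils Csf1 ranged from 9.21 to 113 CPM in the 3 Nlrp3-/- libraries and from 25.7 to 73.9 CPM in wild type, and the groups overlapped.

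Beyond the 10 members, 61 genes of the osteoclast pathway were read in 6 lists. In osteoclast-like cells 47 of them could be tested; edgeR called 0 higher and 0 lower, where 0.717% of all genes passed. Of the 47, 12 had an unadjusted p under 0.05, against 21.5% of all genes, and their median log2 fold change was 0.15 against 0.02 over all genes. DESeq2 called 4 of the 33 to which it gave an adjusted p, in a fit that called 13.9% of such genes: Itgb3, the integrin chain by which osteoclasts attach to bone (edgeR 0.60 ± 0.13, adjusted p = 0.0686), and Prdm1, a repressor of inhibitors of the lineage (0.59 ± 0.19, adjusted p = 0.136), were higher, while Tyrobp, the adaptor DAP12 (-0.66 ± 0.24, adjusted p = 0.161), and Car2, the carbonic anhydrase that supplies protons (-0.59 ± 0.21, adjusted p = 0.155), were lower. Of the resorption list 13 of 14 genes were tested, with a median of 0.13. The fusion list holds 6 genes apart from Dcstamp and Ocstamp, with a median of 0.18. Among them Cd9, a tetraspanin, stood at 347, 280.03 and 700.2 CPM in wild type and 922, 1081 and 720.1 CPM in Nlrp3-/-, without overlap, as was so for 25.5% of all genes with a mean of at least 1 CPM (0.89 ± 0.26, edgeR adjusted p = 0.115).

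In mesenchymal cells 13 of 14 stromal regulators were tested, edgeR and DESeq2 called 0, 1 had an unadjusted p under 0.05, and the median log2 fold change was 0.03 against 0.04 over all genes. Il34, the second ligand of Csf1r, stood at 4.35 ± 0.99 CPM in wild type (log2 fold change -0.02 ± 0.24), and Wnt5a, which raises RANK in precursors, at 40.5 ± 1.22 CPM (0.03 ± 0.18). Sfrp1, a Wnt inhibitor, stood at 426 ± 205 CPM (-0.88 ± 0.44, adjusted p = 0.431). Of all 61 genes, 57 were tested in mesenchymal cells and 52 in macrophages, and edgeR called 0 in each, with 4 and 11 at an unadjusted p under 0.05, against 12.4% and 17.3% of all genes. DESeq2 called 1 of 57 in mesenchymal cells (Mitf) and 4 of 53 in macrophages (Slc9b2, Cd9, Tyrobp and Irf8), against 1.62% and 2.96% of all genes. In cluster 11 Car2 passed with edgeR (-1.24 ± 0.31, adjusted p = 0.0459), where 2.82% of 8479 genes passed. In T and NK cells, where 0.477% of genes passed, Car2, Tyrobp and Irf8 passed with log2 fold changes of -1.51, -1.39 and -1.39 (edgeR adjusted p = 0.0122, 0.0277 and 0.0277).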

How the data were processed

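The authors deposited unfiltered UMI counts per gene and barcode for 6 droplet (10x 3′ v3) libraries. The labels name Cell Ranger 2.1.1 and build mm10, while the headers of the deposited count matrices name Cell Ranger 4. Depth was 97042713 to 134901999 UMIs a library.

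Cells had at least 500 UMIs and 200 genes, at most 10% mitochondrial UMIs and a profile unlike that of barcodes with at most 100 UMIs (false discovery rate 0.01). Predicted doublets were removed at a rate of 0.8% per 1000 cells. Cells were clustered in scanpy 1.11.5 (2000 variable genes, 30 components, Leiden resolution 1.0) and named from marker lists. Within each library, the raw counts of the cells of a type were added up. Genotypes were compared with edgeR 4.0.16 (TMM, quasi-likelihood, Benjamini-Hochberg adjustment over all genes, threshold 0.05), checked on simulated data, with DESeq2 1.42.0 as an alternative. Of simulated log2 fold changes of size 1, edgeR called 82.8% in osteoclast-like cells, 60.6% in macrophages and 14.7% in mesenchymal cells. CPM are per 1000000 UMIs of the summed cells. Single values had exact permutation tests.

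All 10 members were named. Pathway genes were to be named only past the edgeR threshold, and the others were chosen after their values were seen. Members and lists were chosen with earlier results of these data known. Clusters led by another class entered only the sums over all cells and the alternative that kept them. Protein sequences were not used here.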

Additional observations from a re-analysis of the deposited data

Results flagged for a closer look

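The 9833 cells set aside in Nlrp3-/- replicate 1 lie outside all comparisons above, and 6 of the 10 genes stood higher in them than in the set-aside cells of every wild-type library, with exact 95% Poisson intervals that did not overlap. By the same rule 15.3% of 13315 genes with a mean of at least 1 CPM stood higher. The cells compared came from different clusters: 1 mesenchymal cluster gave 5767 of the 9833 cells, but 33 of 121, 33 of 135 and 15 of 95 in the wild-type libraries, and the part of this composition in the values was not tested. Tnfsf11 stood at 18.8 CPM there (95% exact Poisson interval 16.9 to 20.95, for counting error only), against at most 5.76 CPM in the wild-type cells, which hold 21 UMIs of it in all. Csf1 stood at 31.7 CPM against at most 15.9 CPM, and Tnfrsf11a at 17.6 CPM against at most 8.34 CPM. Csf1r stood at 58.8 CPM against at most 38.7 CPM, and Nfatc1 at 67.8 CPM against at most 23.5 CPM. Ctsk stood at 670.5 CPM against at most 400.2 CPM. Free RNA of the same library held 12.7 CPM of Tnfsf11, 24.3 of Csf1, 19.5 of Tnfrsf11a, 85.7 of Csf1r, 57.3 of Nfatc1 and 470.7 of Ctsk, and its part in these values was not tested.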

How the results depend on the processing

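Of 768 values recomputed under an alternative, 717 kept their direction and their side of the threshold. The number of members past the threshold was 0 under every alternative run in the 4 main cell groups, except that leaving out 1 library gave 0 to 2 in osteoclast-like cells and 0 to 1 in macrophages, in both cases through wild-type replicate 3. The number of genes called by edgeR without that library was 2328, 1632, 511 and 30 in osteoclast-like cells, macrophages, mesenchymal cells and all cells, against 73, 62, 15 and 25, and leaving out each other library gave 22 to 29, 22 to 38, 4 to 10 and 17 to 24. DESeq2 called 465, 390, 241 and 340 genes, and edgeR with no filter on low counts 1084, 309, 20 and 34. The causes were not tested.

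Replicate numbers did not pair the libraries. Deviations of log2 CPM from the mean of the own group correlated at -0.05, -0.13 and -0.14 between same-numbered libraries in osteoclast-like cells. With the replicate block 81, 28, 4 and 11 genes were called in the 4 groups and 0 members, and the ligand to decoy ratio in mesenchymal cells differed by -0.60 (exact sign-flip p = 0.25, the smallest that 3 pairs allow, with the ratio lower in Nlrp3-/- in 3 of 3 pairs).

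These log2 fold changes, none past the threshold, changed sign. In osteoclast-like cells Dcstamp was 0.00997 with doublets kept and 0.027 at Leiden resolution 2.0, and Ctsk was -0.25 within cluster 11. In macrophages Dcstamp was 0.28 at resolution 0.5. In mesenchymal cells Tnfrsf11a was 0.022 with no filter, 0.020 with DESeq2, 0.18 with the replicate block, 0.36 with no test against free RNA, 0.32 with doublets kept, 0.69 at resolution 2.0, 2.01 with clusters of 1 library kept and 0.63 with mixed clusters kept. Csf1r was 0.72 with clusters of 1 library kept. Ocstamp was -0.060 at 5% mitochondrial UMIs and -0.034 with doublets kept. Acp5 was 0.040 with no test against free RNA, 9.4e-06 at resolution 0.5, 0.026 at resolution 2.0, 0.61 with clusters of 1 library kept and 0.034 with mixed clusters kept. Over all cells at 5% mitochondrial UMIs, Dcstamp was -0.015, Ocstamp -0.24 and Acp5 -0.20.

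Leaving out 1 library gave these ranges. In osteoclast-like cells Dcstamp ran from -0.12 to 0.075. In macrophages Csf1 ran from -0.010 to 0.28, Dcstamp from -0.78 to 0.15 and Ctsk from -0.069 to 0.65. In mesenchymal cells Tnfsf11 ran from -0.47 to 0.064, Tnfrsf11a from -0.35 to 0.78, Nfatc1 from -0.10 to 0.53, Ocstamp from -0.028 to 0.28 and Acp5 from -0.18 to 0.11. Over all cells Tnfsf11 ran from -0.46 to 0.23, Csf1r from -0.29 to 0.023, Ocstamp from -0.15 to 0.24 and Acp5 from -0.069 to 0.27. The ligand to decoy ratio in synovial lining cells differed by -0.55 to 1.24. The alternative with mixed clusters, the values within clusters and those of the ratio outside mesenchymal cells were chosen after seeing the data.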
